A study of Caenorhabditis briggsae with 16 samples.

Results

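The Bantam family guides of *C. briggsae* are the 3p arms Cbr-Bantam-P1a_3p, Cbr-Bantam-P2_3p, Cbr-Bantam-P3_3p and Cbr-Bantam-P4_3p, written below without the species prefix. They were listed by name as abundant members of the family, and are 4 of the 372 mature miRNA arms in the deposited count table. The table holds 6 further arms named Bantam, which were read beside them: the 5p arms of the same 4 hairpins, marked with an asterisk as passenger strands, and both arms of a further paralogue, P1b. Of these 10 rows, 9 passed the filter on low counts (10 or more in 8 libraries or more), which left 311 arms for the tests, and every one of the 4 guides was among them. Bantam-P1b_5p* was too rare to test and is given by its counts.

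The animals were wild-type *C. briggsae* of strain AF16, a nematode of the same genus as *C. elegans*. Synchronised L1 larvae were put on food without any treatment, grown at 25°C, and collected whole each hour between 18 and 33 h. Each of the 16 hours has 1 library and no replicate, so intervals given for single hours cover counting error only, and the tests measure the spread of single libraries about a fitted curve. RNA of many animals and of every tissue went into each library, and the table holds miRNA arms only, so neither the larval stage nor the tissue could be checked against other markers.

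Bantam is named after a *Drosophila* miRNA that promotes growth and blocks cell death by repressing the pro-apoptotic gene hid. In *C. elegans* the family is known as miR-58, and its members share a seed, the bases at the 5′ end by which a miRNA recognises its target mRNAs. The *C. elegans* family is abundant, acts on TGF-β signalling, and its combined loss gives small animals with defects in dauer formation. A miRNA hairpin is cut into a duplex of 2 arms, of which the guide is kept in the Argonaute protein and the passenger is mostly lost.

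Library totals were 9588599 to 15866144 counts with a median of 12305009. The median arm of the 21 h library lay 0.26 (log2) from the mean of the hours on either side, against 0.17 for the 19 h and 20 h libraries and at most 0.13 for the others that have 2 neighbours. The 18 h library is the first of the course and has a neighbour on 1 side only. The calls of the guides' slopes are therefore also given without these libraries.

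Since the 4 guides were picked as abundant arms, their ranks describe the choice and are no finding. Together they took 21.1% of all counts at 18 h and 34.6% at 32 h, with a median of 30.7% over the 16 libraries. By mean share, Bantam-P1a_3p ranked 1, Bantam-P3_3p 2, Bantam-P4_3p 5 and Bantam-P2_3p 7 among the 372 arms. The order within single libraries moved, from rank 1 to 6 for Bantam-P1a_3p, 2 to 5 for Bantam-P3_3p, 3 to 9 for Bantam-P4_3p and 5 to 10 for Bantam-P2_3p. In the median library the 4 guides held 48.9% of the reads of the 10 most abundant arms, which themselves took 58.7% to 65.6% of a library.

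Their shares did not rise in one shape. Against the library total, Bantam-P4_3p and Bantam-P2_3p gained most, and Bantam-P3_3p gained little and late. The share of Bantam-P1a_3p reached its level early and stayed there, but on other scales, given further down, this guide was called as rising. Unless another scale is named, values below are shares of the library total, so they also depend on what the other miRNAs did. In whole animals, more cells that hold a miRNA and more of it per cell cannot be told apart.

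Bantam-P4_3p was nearly flat and then climbed. Its share was 3.94%, 4.55%, 4.17% and 4.71% at 18 to 21 h, and 4.77%, 4.45%, 4.73% and 4.65% at 22 to 25 h. It was 5.16%, 5.95%, 6.81% and 7.75% at 26 to 29 h, and 8.26%, 8.30%, 8.16% and 8.24% at 30 to 33 h. The climb thus lay between 25 and 30 h, over which the share became 1.78-fold as high (exact 95% counting interval of the ratio 1.77 to 1.78), and the last 4 hours differed little from each other, with 33 h at 0.998 of 30 h. Each of the 4 last hours was above each of the 4 first.

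As a share of the library total, Bantam-P2_3p rose earlier and slowed later. Its share was 2.78%, 4.005%, 4.33% and 3.82% at 18 to 21 h, and 4.22%, 4.60%, 5.11% and 5.18% at 22 to 25 h. It was 5.61%, 5.99%, 5.71% and 5.83% at 26 to 29 h, and 5.97%, 6.12%, 6.39% and 6.31% at 30 to 33 h. From 18 to 25 h the share became 1.86-fold as high (counting interval 1.86 to 1.87), from 19 to 25 h 1.29-fold, and from 28 to 33 h 1.10-fold. Much of the first change thus lay in the step from the 18 h library. Again the 4 last hours all lay above the 4 first.

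Bantam-P3_3p went up, down and up again within a narrow range. Its share was 7.38%, 7.998%, 8.02% and 9.14% at 18 to 21 h, and 8.37%, 7.56%, 7.38% and 7.23% at 22 to 25 h. It was 8.19%, 8.41%, 8.49% and 8.59% at 26 to 29 h, and 9.01%, 9.16%, 9.34% and 9.25% at 30 to 33 h. The lowest value, at 25 h, was followed by a step up at 26 h, and the 21 h value overlapped the last window, whose lowest hour was 9.01%.

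Bantam-P1a_3p was lowest at 18 h and highest at 21 h. Its share was 6.98%, 9.20%, 9.60% and 14.2% at 18 to 21 h, and 11.2%, 9.83%, 11.2% and 10.5% at 22 to 25 h. It was 10.9%, 11.2%, 10.9% and 10.9% at 26 to 29 h, and 11.1%, 10.4%, 10.7% and 10.6% at 30 to 33 h. After 21 h the arm stayed between 9.83% and 11.2%, whereas the first 4 hours spanned the whole range of the course. The 21 h value was 1.48-fold that at 20 h and 1.27-fold that at 22 h, and it came from the library that lies farthest from its neighbours over all arms.

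**Figure D1:**
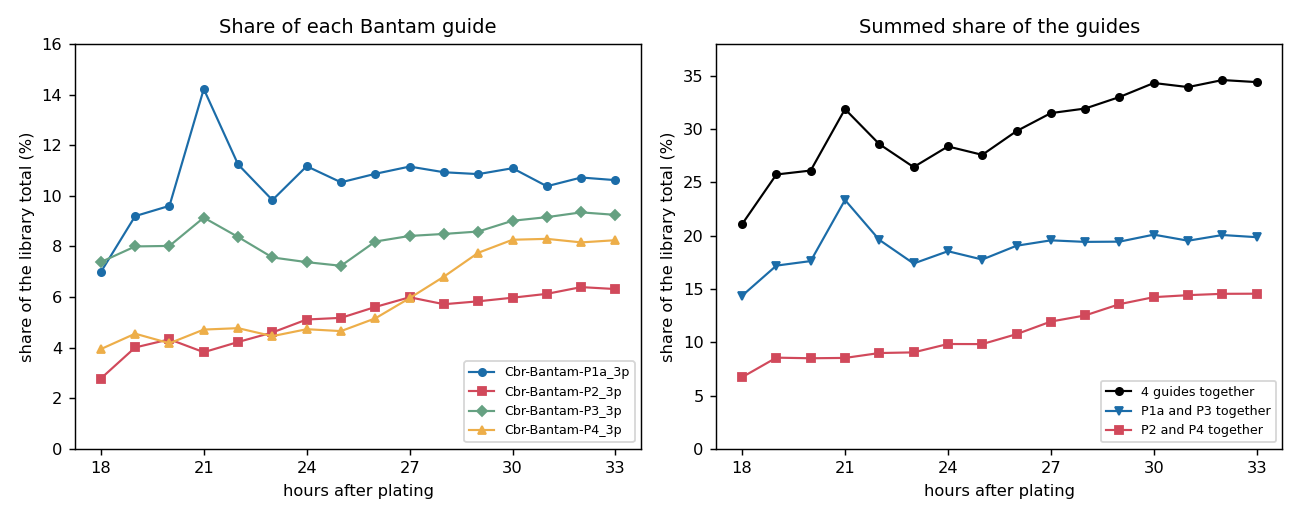
Share of the library total (%) against hours after plating, 1 library per hour and no error bars, for each Bantam guide (left) and for the 4 guides, P1a with P3 and P2 with P4 summed (right). Bantam-P4_3p goes from 4.65% at 25 h to 8.26% at 30 h, whereas Bantam-P1a_3p has its highest value, 14.2%, at 21 h.

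Medians of the first window (18 to 21 h) and the last (30 to 33 h) put sizes on these shapes, without a test because neighbouring hours are not replicates. Bantam-P4_3p went from 4.36% to 8.25%, a ratio of 1.89. Bantam-P2_3p went from 3.91% to 6.22%, a ratio of 1.59. For these guides the windows did not overlap, which among all tested arms was so for 25.1%, with the last window above. For Bantam-P3_3p (8.01% and 9.20%, a ratio of 1.15) and Bantam-P1a_3p (9.40% and 10.7%, a ratio of 1.14) the windows overlapped. The sum of Bantam-P2_3p and Bantam-P4_3p was 8.51% and 14.5% in the medians of the 2 windows, and that of Bantam-P1a_3p and Bantam-P3_3p was 17.4% and 20.0%. The lesser pair thus brought most of the gain of the family, and Bantam-P4_3p went from 18.7% of the 4 guides' reads at 18 h, through 14.8% at 21 h, to 24.0% at 33 h.

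The linear trend was tested with edgeR across all 311 arms, in a curve with a slope and a 7 h wave, and p-values were adjusted over all of them by Benjamini-Hochberg. Of the 4 guides, 3 rose and none fell, beside 27.0% of all tested arms that rose and 41.5% that fell. Bantam-P4_3p rose by 0.080 per hour on the log2 scale (SE 0.0075, adjusted p = 4.5e-07), or 2.29-fold over the 15 h (95% interval 1.94 to 2.72). Bantam-P2_3p rose by 0.064 per hour (SE 0.0080, adjusted p = 5.9e-06), or 1.955-fold (1.63 to 2.34). Bantam-P3_3p rose by 0.019 per hour (SE 0.0051, adjusted p = 0.0046), or 1.21-fold (1.08 to 1.36). Bantam-P1a_3p had a slope of 0.016 per hour (SE 0.0096, adjusted p = 0.14), or 1.19-fold with an interval of 0.954 to 1.47 that holds both a small fall and a rise.

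The slope of Bantam-P1a_3p turned on the 18 h and 21 h libraries. Without the 18 h library it was 0.0046 per hour (adjusted p = 0.65), without the 21 h library it was 0.022 and was called (adjusted p = 0.018), and without both the 18 h and the 21 h libraries it was 0.011 (adjusted p = 0.077). The calls of the other guides held without both, with slopes of 0.050 for Bantam-P2_3p, 0.022 for Bantam-P3_3p and 0.085 for Bantam-P4_3p. Split in the middle, the course gave Bantam-P2_3p 0.098 per hour over 18 to 25 h (adjusted p = 0.018) and 0.024 over 26 to 33 h (adjusted p = 0.011). Bantam-P4_3p had the reverse order, with 0.026 (adjusted p = 0.32) and then 0.095 (adjusted p = 0.0034). Bantam-P3_3p had a slope of -0.014 (adjusted p = 0.70) in the first part and rose by 0.028 (adjusted p = 0.0010) in the second. Its rise over the course thus rests on the later hours. Among all tested arms the median slope was 0.021 per hour in the first part, with 70 rising and 18 falling. In the second part it was -0.044, with 52 rising and 130 falling. Part of the slowing of Bantam-P2_3p against the library total was thus shared by the median arm. The first slope of Bantam-P4_3p was close to that of the median arm.

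The scale matters for the most abundant arms, since they make up much of the total they are divided by. The median tested arm changed by -0.44 (log2) over the 15 h against the library total, by -0.20 against the total without the Bantam rows, by -0.24 under TMM scaling and by -0.11 under median-of-ratios scaling. Bantam-P1a_3p was called as rising on each of the other 3 scales, with slopes of 0.032, 0.030 and 0.039 per hour and adjusted p-values of 0.018, 0.0089 and 0.0018. A change of scale shifts every arm alike, so the slope above that of the median arm is fixed by construction, at 0.046 per hour for Bantam-P1a_3p, 0.094 for Bantam-P2_3p, 0.048 for Bantam-P3_3p and 0.109 for Bantam-P4_3p against the library total. The split over all arms was 84 rising and 129 falling against the library total and 110 rising and 108 falling with median-of-ratios size factors.

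A 7 h wave was called by edgeR in 0 of the 4 guides, beside 7.40% of all tested arms in which it was. The count was also 0 at an unadjusted p under 0.05, with DESeq2 and with limma. The fitted amplitudes were 0.15 (log2, SE 0.060, adjusted p = 0.27) for Bantam-P1a_3p, 0.07 (SE 0.034, adjusted p = 0.41) for Bantam-P3_3p, 0.06 (SE 0.047, adjusted p = 0.68) for Bantam-P4_3p and 0.05 (SE 0.052, adjusted p = 0.78) for Bantam-P2_3p.

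Hour by hour the guides did not move as one. In 4 of the 15 steps between neighbouring hours the shares of all 4 went up, which were the steps to 19, 26, 27 and 30 h, and in 0 steps did all go down. In 9 steps 3 guides went one way and 1 the other, and in 2 steps they split evenly. Bantam-P1a_3p and Bantam-P3_3p moved the same way in 11 of the 15 steps, and Bantam-P2_3p and Bantam-P4_3p, which share the larger rise, in 8. The largest steps up were 0.57 (log2) for Bantam-P1a_3p and 0.19 for Bantam-P3_3p, both to 21 h, 0.53 for Bantam-P2_3p, to 19 h, and 0.21 for Bantam-P4_3p, to 27 h. At 21 h Bantam-P2_3p instead made its largest step down, by -0.18, and the step back of Bantam-P1a_3p to 22 h was -0.34.

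A ratio of 2 guides from the same library does not depend on the library total. The ratio of Bantam-P2_3p to Bantam-P1a_3p was lowest at 21 h (0.268) and highest at 32 h (0.596), with medians of 0.417 in the first window and 0.592 in the last. That of Bantam-P4_3p to Bantam-P1a_3p ran from 0.331 at 21 h to 0.800 at 31 h, and that of Bantam-P4_3p to Bantam-P3_3p from 0.516 at 21 h to 0.917 at 30 h. In each of these 3 ratios the last window lay above the first. By contrast, the ratio of Bantam-P3_3p to Bantam-P2_3p was highest at 18 h (2.66) and lowest at 25 h (1.40). That of Bantam-P4_3p to Bantam-P2_3p turned within the course, from 1.42 at 18 h to 0.899 at 25 h, and had a median of 1.33 in the last window.

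**Figure D2:**
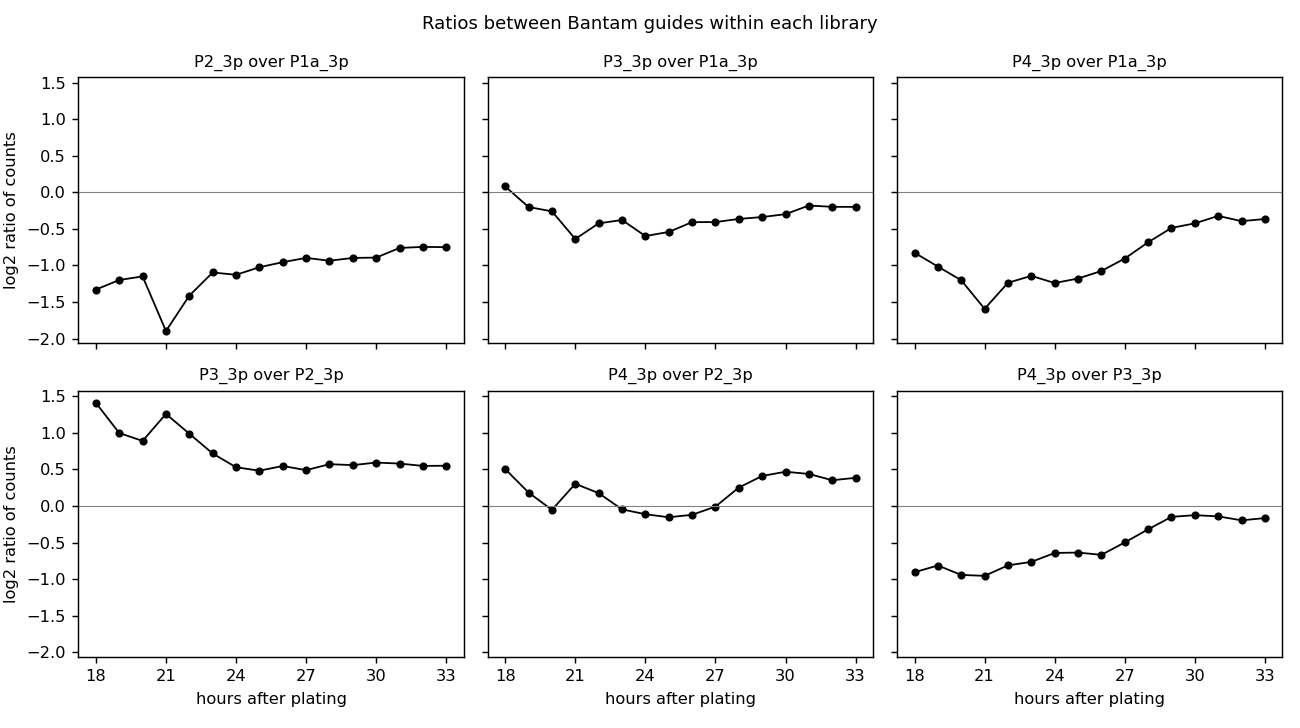
The log2 ratio of the counts of 2 Bantam guides within the same library against hours after plating, 1 panel per pair and 1 library per hour, with a grey line where both counts are equal. As a plain ratio, Bantam-P4_3p over Bantam-P3_3p moves from a median of 0.527 at 18 to 21 h to 0.899 at 30 to 33 h, and the ratios to Bantam-P1a_3p are lowest at 21 h.

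Tested over the whole course with 1 guide as the library size, the 4 guides fell into a faster and a slower pair. Relative to Bantam-P1a_3p, Bantam-P2_3p rose by 0.047 per hour on the log2 scale (SE 0.0099, adjusted p = 0.00068) and Bantam-P4_3p by 0.060 (SE 0.013, adjusted p = 0.00089), beside 19.4% of the other tested arms that rose and 46.1% that fell on this scale. Relative to Bantam-P3_3p, Bantam-P4_3p rose by 0.061 (SE 0.0064, adjusted p = 1.1e-06), where 20.0% of arms rose. Relative to Bantam-P2_3p, Bantam-P3_3p had a slope of -0.048 (SE 0.011, adjusted p = 0.00073) and so fell, as did 72.3% of arms. This last difference lay in the earlier hours, as the ratio of Bantam-P3_3p to Bantam-P2_3p was 2.66 at 18 h, 1.44 at 24 h and 1.46 at 33 h.

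Within each pair no difference in slope was called. Bantam-P3_3p relative to Bantam-P1a_3p had a slope of -0.00035 per hour (SE 0.0098, adjusted p = 0.98), and the 95% interval of its change over the 15 h was 0.799 to 1.24-fold. Bantam-P4_3p relative to Bantam-P2_3p had a slope of 0.013 (SE 0.012, adjusted p = 0.33), with an interval of 0.866 to 1.51-fold. Without the 18 h library, where Bantam-P2_3p was lowest, this slope was 0.031 and was called (adjusted p = 0.018). Over 18 to 29 h alone, Bantam-P4_3p relative to Bantam-P1a_3p had a slope of 0.042 and was not called (adjusted p = 0.19).

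The passenger arms of the 4 hairpins differed far more in level than the guides did. Over all libraries the 5p arm made up 4.99% of the reads of both arms for P2, 0.639% for P1a, 0.0955% for P4 and 0.0722% for P3. There were thus 19.0 guide reads per 5p read for P2, 155 for P1a, 1046 for P4 and 1382 for P3. The single-hour counts behind these shares were 12099 to 51829 for Bantam-P2_5p*, 4802 to 13873 for Bantam-P1a_5p*, 277 to 1081 for Bantam-P3_5p* and 256 to 1381 for Bantam-P4_5p*.

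Bantam-P2_5p* swung up and down more than its guide. Its share of the library total was 0.224%, 0.165%, 0.229% and 0.120% at 18 to 21 h, and 0.178%, 0.258%, 0.330% and 0.414% at 22 to 25 h. It was 0.389%, 0.269%, 0.228% and 0.204% at 26 to 29 h, and 0.278%, 0.328%, 0.319% and 0.313% at 30 to 33 h. From the low at 21 h to the high at 25 h the passenger changed 3.45-fold (counting interval 3.39 to 3.52), over which its guide changed 1.36-fold. From 22 to 25 h, without the 21 h library, the changes were 2.33-fold and 1.23-fold. From 25 to 29 h the passenger went to 0.493 of its level, while the guide went to 1.13-fold. As a part of the reads of both arms it stood at 7.48% in the 18 h library and 3.05% in the 21 h library, then at 7.41% (25 h), 3.39% (29 h) and 5.09% (31 h).

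The 7 h wave of Bantam-P2_5p* had an amplitude of 0.40 (log2, SE 0.11) and was not called (adjusted p = 0.089), but it was called in 6 of 28 alternatives. These were TMM factors (adjusted p = 0.027), median-of-ratios size factors (0.024), DESeq2 (0.022), the hours 18 to 29 alone (0.031), a quadratic trend (0.0012) and leaving out the 19 h library (0.031). Its linear rise of 0.044 per hour (SE 0.017, adjusted p = 0.035) was lost in several settings. It was no longer called without the 18, 19, 21 or 28 h library, with adjusted p-values of 0.12, 0.099, 0.055 and 0.057. Nor was it called with an 8 h wave (0.051), with the linear term only (0.061), or with that term over 18 to 25 h (0.096) or 26 to 33 h (0.92).

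Bantam-P1a_5p* was the only Bantam row tested that fell. Its share was 0.0533%, 0.0874%, 0.0839% and 0.0779% at 18 to 21 h, and 0.0659%, 0.0616%, 0.0706% and 0.0804% at 22 to 25 h. It was 0.0830%, 0.0706%, 0.0615% and 0.0590% at 26 to 29 h, and 0.0521%, 0.0505%, 0.0501% and 0.0547% at 30 to 33 h. High values at 19 to 20 h and at 25 to 26 h were thus followed by low values at the end, and the 18 h value lay among those of the last window. The slope was -0.033 per hour (SE 0.012, adjusted p = 0.022). It was not called with TMM factors (-0.019, adjusted p = 0.078), median-of-ratios size factors (-0.010, adjusted p = 0.36) or the total without the Bantam rows (-0.018, adjusted p = 0.22), nor without the 19, 32 or 33 h library (adjusted p = 0.052, 0.060 and 0.093). The call was also lost over 18 to 29 h alone (-0.0059, adjusted p = 0.80) and with an 8 h wave (-0.031, adjusted p = 0.051).

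Against its own guide, which is free of the scale, Bantam-P1a_5p* fell by 0.049 per hour on the log2 scale (SE 0.010, adjusted p = 0.00055). Relative to this guide, 46.1% of the tested arms were called as falling. The 5p part of both P1a arms was 0.812% in the median of the first window and 0.476% in that of the last, with the highest value at 19 h (0.942%) and the lowest at 32 h (0.465%). Between these hours the part did not fall steadily. It went to 0.545% in the 21 h library, back to 0.758% at 25 h and down to 0.468% at 30 h. Over 18 to 29 h alone the relative slope was -0.025 and was not called (adjusted p = 0.24).

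Bantam-P3_5p* and Bantam-P4_5p* both had their highest share at 28 h. Bantam-P3_5p* had its lowest share, 0.00275%, at 21 h and its highest, 0.00877%, at 28 h. The counting interval at 28 h (0.00825% to 0.00931%) overlapped that at 26 h (0.00771% to 0.00869%), so the peak hour of this arm is not resolved. Bantam-P3_5p* then stood at 0.00613% (30 h) and 0.00755% (33 h). Bantam-P4_5p* was lowest at 19 h (0.00194%) and highest at 28 h (0.0112%), and was 0.00528% at 33 h. From 28 to 33 h Bantam-P4_5p* went to 0.471 of its level (counting interval 0.427 to 0.520), while Bantam-P4_3p became 1.21-fold as high. The passenger of P4 thus went down from 28 h, while its guide was still climbing to 30 h and then stayed level.

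Over the whole course both of these passengers rose, Bantam-P3_5p* by 0.073 per hour (SE 0.018, adjusted p = 0.0024) and Bantam-P4_5p* by 0.11 (SE 0.028, adjusted p = 0.0029). A slope fitted to 26 to 33 h alone was -0.034 (adjusted p = 0.24) for Bantam-P3_5p* and -0.11 (adjusted p = 0.030) for Bantam-P4_5p*, so the latter fell in this stretch. Relative to its guide Bantam-P4_5p* had a slope of 0.031 (SE 0.032, adjusted p = 0.37), which over 18 to 29 h alone was 0.14 and called (adjusted p = 0.0057). Bantam-P3_5p* rose relative to its guide by 0.054 (SE 0.023, adjusted p = 0.048), where 20.0% of arms rose. This call stood in 6 of the 16 fits with 1 library left out. The slope of Bantam-P2_5p* relative to its guide was -0.021 (SE 0.014, adjusted p = 0.16), and it was called without the 19 h library only (-0.033, adjusted p = 0.011).

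**Figure D3:**
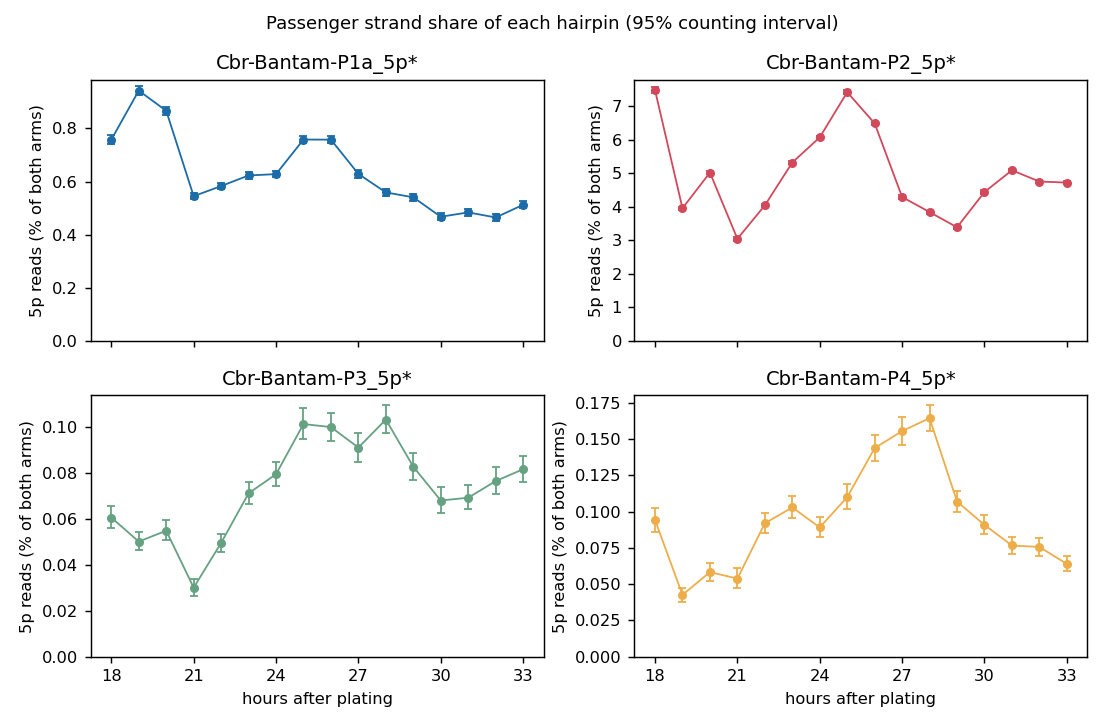
The 5p arm as a percentage of the reads of both arms of the P1a, P2, P3 and P4 hairpins against hours after plating, 1 panel per hairpin with its own axis from 0, 1 library per hour, with 95% counting intervals. The P2 hairpin lies between 3.05% and 7.48%, the P1a hairpin between 0.465% and 0.942%, and the P3 and P4 hairpins at or below 0.164%.

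Bantam-P1b_3p, the guide of the further paralogue, was rare and rose most of all Bantam rows tested. Its counts were 4, 12, 7 and 10 at 18 to 21 h, 30, 23, 33 and 17 at 22 to 25 h, 13, 45, 33 and 43 at 26 to 29 h, and 57, 71, 76 and 74 at 30 to 33 h. Scaled per 1000000 of the library total this was 0.293 at 18 h (counting interval 0.0799 to 0.751) and 7.93 at 32 h (6.24 to 9.92). Summed over windows the counts were 33, 103, 134 and 278, and the last window was 11.1-fold the first when scaled to the totals (counting interval 7.74 to 16.5). The slope was 0.27 per hour (SE 0.027, adjusted p = 1.0e-06).

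The rise of Bantam-P1b_3p was not a fixed part of the reads of Bantam-P1a_3p. There were 4.20 reads of Bantam-P1b_3p per 1000000 reads of Bantam-P1a_3p at 18 h, from 4 counts, then 8.22, 5.11 and 6.97 at 19 to 21 h, and 73.9 at 32 h, and its slope relative to Bantam-P1a_3p was 0.25 per hour (SE 0.026, adjusted p = 9.4e-07). Whether reads of near-identical arms were credited to both rows was not tested, since no sequences were used here. Bantam-P1b_5p* had 0 to 9 counts per library and 2, 4, 19 and 25 in the 4 windows. The 0 counts at 20, 21 and 22 h allow up to 0.210, 0.297 and 0.201 per 1000000 of the library total, taken as 3 counts of each total and not as the exact interval used above.

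**Figure D4:**
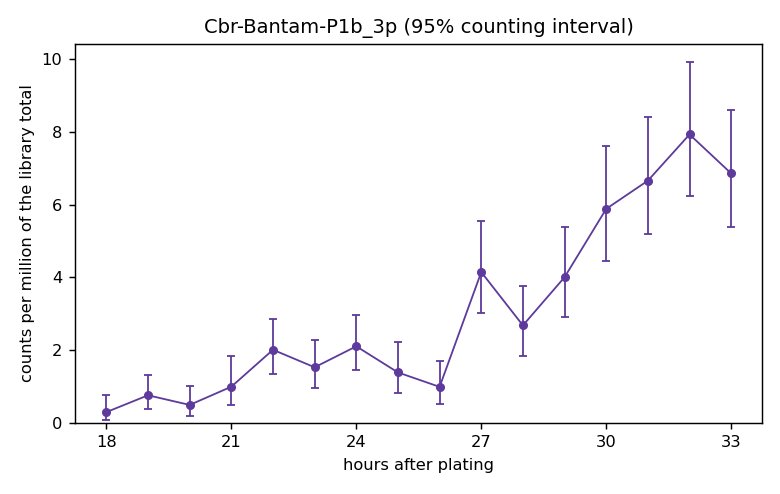
Counts of Bantam-P1b_3p per 1000000 of the library total against hours after plating, 1 library per hour, with exact 95% counting intervals. The values at 30 to 33 h lie between 5.88 and 7.93, above those at 18 to 21 h, which are 0.293 to 0.992.

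Taking the 9 tested Bantam rows together, 7 rose and 1 fell, beside 27.0% of all tested arms that rose and 41.5% that fell. Of the 6 Mir-2 rows 1 rose and 4 fell, of the 8 Let-7 rows (the family of the heterochronic let-7, which times late larval development in *C. elegans*) 2 rose and 4 fell, and of the 8 Mir-10 rows 2 rose and 4 fell. Of the 2 Mir-1 rows (a muscle miRNA) 1 rose and 1 fell, and neither Mir-71 row was called. These counts describe the families as named in the table and are not a test between them. The Bantam rows took 26.2% of the counts in the median of the first window and 34.7% in that of the last, the Let-7 rows 4.49% and 5.13%, and the Mir-10 rows 7.70% and 5.40%. The Mir-71 rows took 0.803% and 1.21%, the Mir-1 rows 0.173% and 0.267%, and the Mir-2 rows 0.766% and 0.857%. In proportion, the window medians of the Mir-71 and Mir-1 rows thus rose more than that of the Bantam rows. Both Mir-71 rows had a 7 h wave called by edgeR, with amplitudes of 0.84 and 0.73 (log2, adjusted p = 0.014 and 0.015). Their summed share ran from 0.300% to 1.43% over the course. Whether the windows caught different parts of this wave was not tested.

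Among the 10 most abundant arms, the only ones called as rising against the library total were Bantam-P2_3p, Bantam-P3_3p and Bantam-P4_3p. On the other scales Bantam-P1a_3p was called as well, and the arms outside Bantam are given here against the library total only. Cbr-Mir-96-P3_5p fell by 0.08 per hour on the log2 scale (adjusted p = 1.2e-06), with window medians of 10.3% and 4.75%. Cbr-Mir-279-o8b_3p fell by 0.12 (adjusted p = 1.6e-07, 5.36% and 1.86%), Cbr-Mir-90-P1_3p by 0.07 (adjusted p = 3.1e-09, 6.997% and 4.09%) and Cbr-Mir-10-P1_5p by 0.05 (adjusted p = 0.00024, 6.07% and 4.15%). Abundant arms thus traded places, with Cbr-Mir-96-P3_5p above both Bantam-P1a_3p and Bantam-P4_3p in the median of the first window and below both in that of the last. Bantam-P1a_3p was already above it within the first window, at rank 1 in the 20 h and 21 h libraries. Cbr-Mir-54-P3_3p (adjusted p = 0.83) and Cbr-Let-7-P8_5p (adjusted p = 0.16) were not called.

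The arms whose course was most like that of each guide were found among 246 arms by Pearson's r over the 16 hours, as a description. Bantam-P2_3p was most like Cbr-Mir-193-P1-v1_3p and Cbr-Mir-193-P1-v2_3p (r = 0.96 for each, which have nearly the same counts) and Cbr-Mir-193-P2-v2_3p (0.95). These arms went from a median of 0.00544% to 0.154%, and from 0.00187% to 0.0585%, and so changed far more than the guide. Bantam-P4_3p was most like Cbr-Mir-785-P1_3p, Cbr-Mir-36-o13_5p* and Cbr-Mir-216-P2_5p (0.95 each). Bantam-P1a_3p was most like Cbr-Mir-9-P14_3p (0.84), Cbr-Let-7-P5_5p (0.82) and Cbr-Mir-73-P3b_3p (0.76), and Bantam-P3_3p was most like Cbr-Mir-36-o13_3p, Cbr-Mir-36-o22_3p (0.81 each) and Cbr-Mir-36-o1_3p (0.80). Between the guides r was 0.81 for Bantam-P2_3p and Bantam-P4_3p, 0.78 for Bantam-P3_3p and Bantam-P4_3p, 0.48 to 0.51 for Bantam-P1a_3p with Bantam-P2_3p or Bantam-P3_3p and for Bantam-P2_3p with Bantam-P3_3p, and 0.31 for Bantam-P1a_3p and Bantam-P4_3p. The points of each r share the library and its depth, and arms that trend in one direction resemble each other for that alone.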

How the data were processed

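Members and lists were chosen with earlier results of these data known. The authors trimmed the 3′ adapter, mapped reads with QuasR and Bowtie, allowing 100 hits per read, and deposited whole-number counts of sense reads that began no more than 3 bp from where the annotation starts an arm. The Methods name the assembly WS225 and MirGeneDB arms, the submitters' processing notes name ce10, with tool versions not given in the sources used here. The authors also deposited log2 values, which were recomputed as log2 of the count scaled to the mean total plus 8 (largest difference 0.0005 over 5952 values) and were used only for likeness.

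Counts were fitted with edgeR 4.0.16 in R 4.3.3 (glmQLFit, glmQLFTest), with the library total as library size, a slope over the hours and a 7 h wave (cosine and sine). Arms that reached 10 counts in 8 or more libraries were tested, and Benjamini-Hochberg adjusted p-values under 0.05 were called. Relative slopes used a guide's count as library size, over 310 arms. Slope intervals use t with 12 residual degrees of freedom and treat hours as independent. Counting intervals are exact (95%) and leave out all but counting error, since reads carry no molecular identifiers. The rule for named arms took the 4 guides, the other Bantam rows, the 10 most abundant arms, the 3 arms most like each guide (mean count at least 100) and 6 families. Alternatives were other scalings (TMM, median of ratios, total without the Bantam rows), DESeq2 1.42.0, limma 3.58.1, other periods, terms, filters and hours, and each library left out. Descriptive steps used Python 3.11.15. Only the edgeR fit was tested on simulated data. The lowest chi-square per degree of freedom over the 28 pairs of the 8 Bantam rows other than P1b was 24.2, so none of these pairs moved in proportion within counting noise. The P1b rows were not in this check.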

Additional observations from a re-analysis of the deposited data

How the results depend on the processing

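No paired analysis was possible because each hour has 1 library. The slopes of Bantam-P2_3p and Bantam-P1b_3p were called as rising in each of 30 alternatives. The cause of the changes below was not tested, except that shorter stretches hold fewer libraries.

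The window ratios (30 to 33 h over 18 to 21 h) became 1.29 for Bantam-P1a_3p, 1.72 for Bantam-P2_3p, 1.30 for Bantam-P3_3p and 2.14 for Bantam-P4_3p against the total without the Bantam rows, and 1.32, 1.87, 1.21 and 1.93 with windows of 18 to 19 h and 32 to 33 h. The slope of Bantam-P1a_3p (log2 per hour) was 0.032 without the Bantam rows, 0.030 with TMM factors and 0.039 with median-of-ratios size factors, all called, and 0.0046 (without 18 h) to 0.022 (without 21 h) with 1 library left out. The slope of Bantam-P3_3p was 0.00086 over 18 to 29 h (adjusted p = 0.91) and -0.014 over 18 to 25 h, and that of Bantam-P4_3p was 0.026 over 18 to 25 h.

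Slopes of passengers that turned were 0.0064 for Bantam-P1a_5p* over 18 to 25 h (adjusted p = 0.94), and -0.034 for Bantam-P3_5p* and -0.11 for Bantam-P4_5p* over 26 to 33 h. Relative to a guide, over 18 to 29 h, Bantam-P4_3p to Bantam-P1a_3p was 0.042, Bantam-P1a_5p* to its guide -0.025 and Bantam-P4_5p* to its guide 0.14. Bantam-P3_5p* to its guide was 0.054 without a filter (adjusted p = 0.053). With 1 library left out, the relative slopes ran from 0.0074 to 0.031 for Bantam-P4_3p to Bantam-P2_3p, from -0.033 to -0.015 for Bantam-P2_5p* to its guide and from 0.042 to 0.066 for Bantam-P3_5p* to its guide.

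Over all tested arms the falling count was 72 over 18 to 29 h and 18 over 18 to 25 h, and the rising count 52 over 26 to 33 h. The count with a 7 h wave was 39 with DESeq2, 3 for a 6 h wave, 12 for an 8 h wave, 55 with a quadratic trend, and 14 to 29 with 1 library left out, lowest without the 22 h library. Leaving out the 18 h and 21 h libraries together, chosen after seeing the data, gave 77 rising, 133 falling and 28 with a wave, and ended the call of Bantam-P2_5p* (slope 0.028, adjusted p = 0.19). Depth limits Bantam-P1b_3p before 22 h, with at most 12 counts.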
